A study of Mus musculus with 4 samples.

Results

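The genes described here are 10 signals that draw or sustain myeloid cells: the chemokines Cxcl1, Cxcl2, Cxcl5, Ccl2, Ccl7, Ccl20 and Cx3cl1, the growth factors Csf1 and Il34, and the cytokine Il6. They were chosen by name as chemokines, growth factors and a cytokine linked to myeloid cells. Not all act on myeloid cells alone, since Ccl20 also attracts lymphocytes and Il6 also acts on liver cells. All 10 were found by symbol among the 55728 rows of the count table. RNA came from unstimulated LPC-HRas cells, a line of mouse liver cancer cells, and was sequenced in 2 libraries labelled UBXN9-overexpressing and 2 labelled control. UBXN9 carries a UBX domain, which binds the ATPase VCP, and its mouse gene is named Aspscr1. Both groups are the same HRas-named line. The vector and promoter behind the overexpression, what the control cells carry, whether a library came from its own culture and whether the cells are 1 clone are not given in the sources used here. The p-values therefore measure only the spread between these libraries. With 2 libraries a group, 0.333 is the smallest two-sided p that exact permutation allows.

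Chemokines are small secreted proteins that guide leukocytes along concentration gradients to cells that bear the matching receptor. CXC chemokines of the Cxcl1 type act on Cxcr2 and recruit neutrophils, Ccl2 and Ccl7 act on Ccr2 and recruit monocytes, Ccl20 acts on Ccr6, and Cx3cl1 is made as a membrane-anchored protein that binds Cx3cr1. Csf1 and Il34 share the receptor Csf1r and keep macrophages alive. Il6 signals through Il6ra and Il6st and drives acute-phase and growth responses in liver cells. Promoters of many of these genes are known NF-kB targets in inflammation.

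Totals ran from 21814969 to 26292686 estimated counts per library. Levels are given as CPM, that is counts scaled by TMM-adjusted library size, and a change is an edgeR adjusted p under 0.05 over the 13230 genes tested. Aspscr1 had 392 and 380 CPM in the UBXN9 libraries, against 92.1 and 115 CPM in the controls, a 3.72-fold rise (log2 1.90, SE 0.18, adjusted p = 0.00144). Of the liver cell markers, Sox9, Spp1 and Cd44 were abundant. Of 8 biliary and progenitor markers, however, only 4 were tested. The untested ones had at most 4 counts in any library, and 2 had 0 in all. Alb and Tat, which mark hepatocytes, had 0 counts in all 4 libraries. The hepatocyte list of 10 genes summed to between 1.04 and 1.70 CPM. The libraries of a group differed by a median absolute log2 value of 0.292 between the UBXN9 libraries and 0.186 between the controls. These differences ran with transcript length across genes, with Spearman correlations of -0.434 for UBXN9 1 minus UBXN9 2 and 0.34 for control 1 minus control 2, whereas that of the log2 fold change was 0.000279.

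Of the 10 genes, 5 rose in UBXN9-overexpressing cells and 0 fell, where 5.06% of all genes tested rose, 2.38% fell and 7.44% did either. The genes that rose were Cxcl1, Cxcl2, Cxcl5, Ccl20 and Csf1, while Ccl2, Ccl7, Cx3cl1, Il34 and Il6 did not pass. All 10 log2 fold changes were above 0, except that of Cx3cl1 with library size alone as the scaling (-0.044). The count of 0 lower was the same at an unadjusted p under 0.05 and with DESeq2 and limma-voom. For 10 genes, however, 0 lower is near the 2.38% of all genes tested. Their median log2 fold change was 0.84, beside -0.0056 over all genes tested. In 8 of the 10 both UBXN9 libraries lay above both controls, as in 25.0% of all genes tested. All 10 passed the filter on low counts, Ccl20 and Il6 only through the UBXN9 libraries, so a test of these 2 depends on the group where they were high. From bulk RNA, more cells making a transcript and more transcript per cell cannot be told apart.

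**Figure D1:**
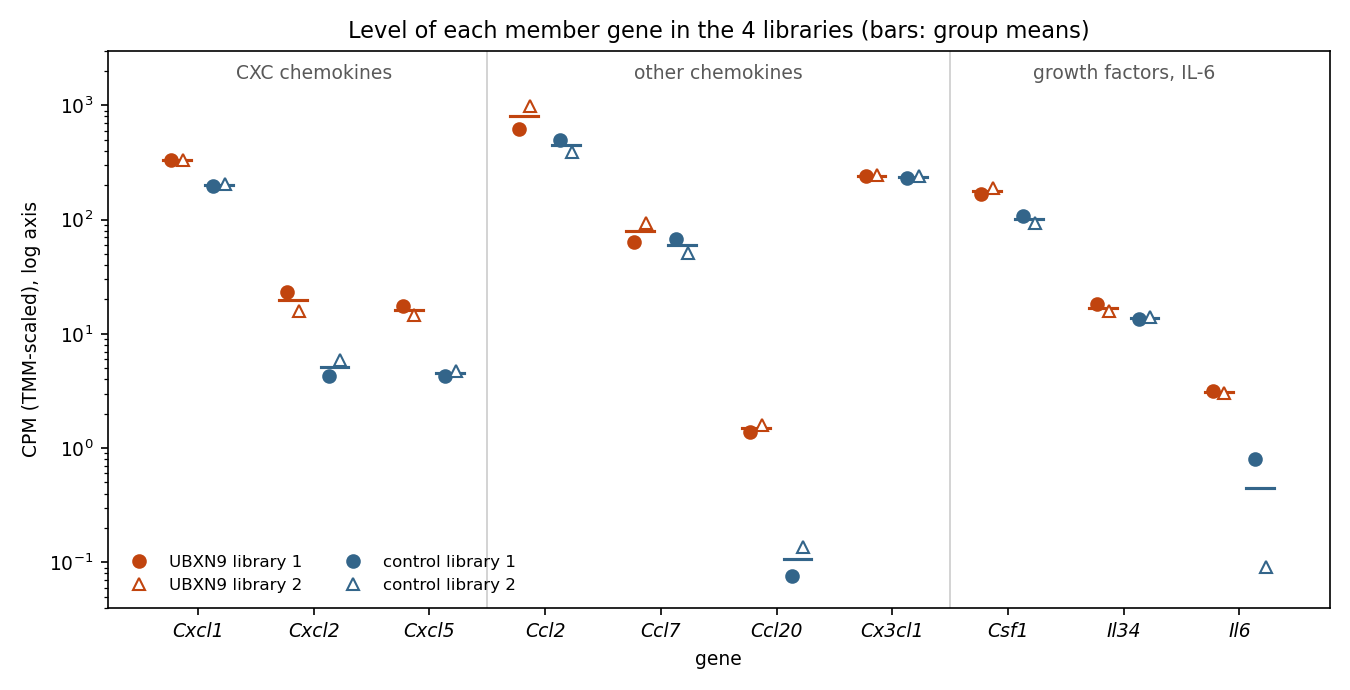
The level of each gene in each library is plotted as CPM on a log axis, with UBXN9-overexpressing libraries in orange on the left, control libraries in blue on the right and a bar at each group mean. The groups are separated for Cxcl2, Cxcl5, Ccl20 and Il6 and lie on top of each other for Cx3cl1, while the 2 control libraries stand far apart for Il6.

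Gene positions are given in GRCm38. The neutrophil-attracting CXC chemokines rose as 3 of 3. Cxcl1 (ENSMUSG00000029380, chr5:90891241-90893115, plus strand), an abundant ligand of Cxcr2, had 331 and 333 CPM in the UBXN9 libraries, against 196 and 205 CPM in the controls. The 2 libraries of each group lay close together and the groups did not overlap. Its rise was 1.65-fold (95% interval 1.29 to 2.13), log2 0.73 with SE 0.15, and passed (adjusted p = 0.0361). The estimate stayed between 0.69 and 0.76 whichever library was left out, but the adjusted p was 0.41 without control 1 and 0.268 without control 2.

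Cxcl2 (ENSMUSG00000058427, chr5:90903871-90905938, plus strand), a second Cxcr2 ligand encoded beside Cxcl1 on chromosome 5, had 23.4 and 15.8 CPM in the UBXN9 libraries, against 4.27 and 5.90 CPM in the controls. UBXN9 1 held the highest value, and the lower UBXN9 library was still above both controls. The rise was 3.85-fold (95% interval 2.38 to 6.23, log2 1.94, SE 0.29, adjusted p = 0.0101). Cxcl5 (ENSMUSG00000029371, chr5:90759360-90761624, plus strand), a Cxcr2 ligand made mostly by epithelial cells in inflammation, had 17.7 and 14.6 CPM in the UBXN9 libraries, against 4.24 and 4.76 CPM in the controls. It rose 3.58-fold (95% interval 2.42 to 5.30, log2 1.84, SE 0.24) and had the smallest adjusted p of the 10 genes, 0.00538. Cxcl2 and Cxcl5 passed the test without any 1 of the 4 libraries, with adjusted p values of at most 0.0158 and 0.0166.

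Reads of Cxcl2 and its relative Cxcl3 could be confused in part. Of 2159 windows of 50 bases in the annotated Cxcl2 transcripts 126, or 5.84%, also occur in Cxcl3, and how such reads were counted is not given in the sources used here. Cxcl5 shared 13 of 1876 windows with other genes and Il34 26 of 1999 with Gm15895, an RNA on the opposite strand. The other 7 genes shared 0.

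The RefSeq promoter table (GRCm38.p6, 250 bases before to 50 after the gene start) holds 6 of the 10 genes: Cxcl1, Cxcl2, Ccl20, Cx3cl1, Csf1 and Il6. The start is that of RefSeq, which lies 171 bases downstream of the GENCODE gene start for Cx3cl1, 28 for Cxcl2 and 4 for Cxcl1, so the Cx3cl1 window lies mostly within the GENCODE gene. Of the 6, 5 hold a match to the NF-kB motif on either strand, Cx3cl1 being the exception, and 8.46% of the 32851 promoters of this length hold one. The promoters of the closely placed pair Cxcl1 and Cxcl2, of Ccl20 with the largest rise, and of Cx3cl1, whose level was alike in both groups, are shown 5′ to 3′ on the coding strand with the match in capitals. They lie at chr5:90890995-90891294, chr5:90903649-90903948, chr1:83116516-83116815 and chr8:94771930-94772229, all on the plus strand.
Cxcl1: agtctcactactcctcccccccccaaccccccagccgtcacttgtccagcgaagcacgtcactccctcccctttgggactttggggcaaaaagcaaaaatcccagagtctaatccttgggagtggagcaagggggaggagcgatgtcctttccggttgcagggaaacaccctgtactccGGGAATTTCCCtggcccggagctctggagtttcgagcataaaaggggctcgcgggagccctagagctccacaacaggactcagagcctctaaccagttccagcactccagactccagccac
Cxcl2: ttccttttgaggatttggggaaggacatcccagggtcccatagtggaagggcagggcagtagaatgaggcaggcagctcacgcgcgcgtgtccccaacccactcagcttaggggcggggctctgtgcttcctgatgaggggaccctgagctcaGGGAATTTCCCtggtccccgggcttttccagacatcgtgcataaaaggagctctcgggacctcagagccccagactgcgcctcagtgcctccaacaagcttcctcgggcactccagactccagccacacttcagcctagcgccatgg
Ccl20: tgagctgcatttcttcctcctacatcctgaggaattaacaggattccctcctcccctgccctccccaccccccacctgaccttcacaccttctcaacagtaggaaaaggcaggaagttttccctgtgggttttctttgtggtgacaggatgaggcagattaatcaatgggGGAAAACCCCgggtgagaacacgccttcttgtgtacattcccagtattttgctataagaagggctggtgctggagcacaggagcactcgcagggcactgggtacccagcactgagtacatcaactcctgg
Cx3cl1: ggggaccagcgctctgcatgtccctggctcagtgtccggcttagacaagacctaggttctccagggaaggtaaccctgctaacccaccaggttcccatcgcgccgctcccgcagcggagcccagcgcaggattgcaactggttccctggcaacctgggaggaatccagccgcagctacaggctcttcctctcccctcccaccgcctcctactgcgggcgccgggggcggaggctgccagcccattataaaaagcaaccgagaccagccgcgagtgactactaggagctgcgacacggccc

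The matches in Cxcl1 and Cxcl2 are the same 11 letters, GGGAATTTCCC, which read as overlapping matches on the 2 strands and are counted as 1 site. They end 61 bases before the start in Cxcl1 and 87 bases before it in Cxcl2, and the rises of these genes were 1.65-fold and 3.85-fold. Ccl20 holds GGAAAACCCC, a match on the minus strand that ends 71 bases before the start. Il6 holds the NF-kB match GGGATTTTCC, the AP-1 match TGAGTCA and the C/EBP match TTGTGCAA, and Csf1 holds the minus-strand NF-kB match GGAAAGTCCC, 145 bases before the start. Over all promoters, 7.81% hold the AP-1 motif TGANTCA, 10.8% the C/EBP motif TTGCNNAA and 3.44% the interferon response motif (GAAA, any 2 bases, GAAA), which is in 0 of the 6. A match is a match of letters in this window and was not tested for binding. Whether matches go with the rises was not tested either. Il6 holds a match and did not pass, and Cxcl5, which rose, has no promoter here.

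Among the other chemokines 1 of 4 rose. Ccl20 (ENSMUSG00000026166, chr1:83116766-83119167, plus strand), which attracts dendritic cells and lymphocytes that carry Ccr6, had 28 and 42 counts in the UBXN9 libraries, against 2 and 3 counts in the controls. That is 1.39 and 1.58 CPM, against 0.0763 and 0.136 CPM, so the gene was close to silent in control cells and low in UBXN9-overexpressing cells. The rise was 13.7-fold with a wide 95% interval of 5.27 to 35.5 (log2 3.77, SE 0.58, adjusted p = 0.0108). It passed the filter on low counts only through the UBXN9 libraries and was not tested with a filter of 5 CPM in 2 libraries. The call held without any 1 library, with log2 fold changes from 3.40 without control 1 to 4.20 without control 2.

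Ccl2 (ENSMUSG00000035385, chr11:82035571-82037453, plus strand), the main monocyte chemokine of liver, had 622 and 981 CPM in the UBXN9 libraries, against 500 and 393 CPM in the controls. The groups did not overlap, but UBXN9 2 stood 1.58 times as high as UBXN9 1. The log2 fold change was 0.84 (SE 0.26, 95% interval 0.23 to 1.46) and did not pass (adjusted p = 0.114). It was 1.14 without UBXN9 1 (adjusted p = 5.4e-05) and 0.48 without UBXN9 2 (adjusted p = 0.113), and with all libraries DESeq2 gave an adjusted p of 0.00813. Ccl7 (ENSMUSG00000035373, chr11:82045712-82047525, plus strand), a monocyte chemokine encoded next to Ccl2, had 63.6 and 93.6 CPM in the UBXN9 libraries, against 68.2 and 50.5 CPM in the controls. Its groups overlapped, since UBXN9 1 lay below control 1, and the log2 fold change was 0.40 (95% interval -0.16 to 0.97, adjusted p = 0.4). Without UBXN9 1 it was 0.67 (adjusted p = 0.00518).

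Cx3cl1 (ENSMUSG00000031778, chr8:94772009-94782427, plus strand), which is shed from the cell surface to attract monocytes that carry Cx3cr1, had 238 and 246 CPM in the UBXN9 libraries, against 230 and 241 CPM in the controls. The groups overlapped and the 4 values lay within a narrow range. Its log2 fold change was 0.04 (SE 0.15, adjusted p = 0.919), and -0.044 with library size alone as the scaling. The 95% interval of the fold, 0.804 to 1.32, bounds the change on either side.

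**Figure D2:**
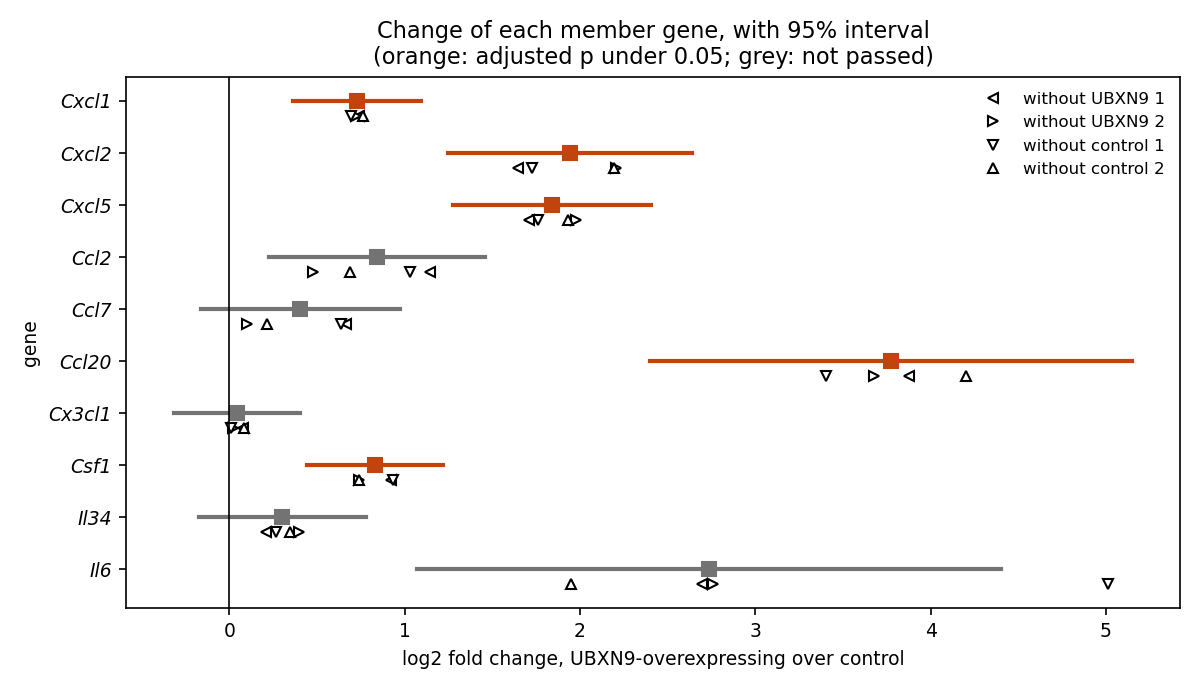
Squares give the log2 fold change of each gene, UBXN9-overexpressing over control, with its 95% interval as a bar, in orange where the adjusted p was under 0.05 and in grey where it was not. Open triangles give the value without each library in turn, and those of Il6 spread from 1.95 without control 2 to 5.01 without control 1.

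Of the growth factors, Csf1 (ENSMUSG00000014599, chr3:107741048-107760469, minus strand), which supports monocyte and macrophage survival, had 169 and 190 CPM in the UBXN9 libraries, against 108 and 93.9 CPM in the controls. The groups did not overlap, and the gap between them was larger than the gap within either. It rose 1.78-fold (95% interval 1.36 to 2.32, log2 0.83, SE 0.16, adjusted p = 0.0274). The adjusted p was 0.127 without control 1, 0.265 without control 2 and 0.0731 with library size alone. Il34 (ENSMUSG00000031750, chr8:110741829-110805924, minus strand), the other ligand of Csf1r, had 18.1 and 15.8 CPM in the UBXN9 libraries, against 13.4 and 14.1 CPM in the controls. The log2 fold change of Il34 was 0.30 (SE 0.20, 95% interval -0.17 to 0.78) and did not pass (adjusted p = 0.46). Per kilobase of exon, the level of Csf1 was 3.46 and 4.46 times that of Il34 in the UBXN9 libraries, against 2.99 and 2.47 times in the controls.

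Il6 (ENSMUSG00000025746, chr5:30013114-30019981, plus strand) had 64 and 80 counts in the UBXN9 libraries, against 21 and 2 counts in the controls. On the CPM scale these were 3.19 and 3.02, against 0.801 and 0.0907. The UBXN9 libraries agreed closely, whereas control 1 stood 8.83 times as high as control 2. Its log2 fold change was 2.73 (SE 0.70, 95% interval 1.07 to 4.40), and the gene did not pass (adjusted p = 0.0669). Il6 passed the filter on low counts only through the UBXN9 libraries, so its test depends on the group where it was high. The test was passed with DESeq2 (adjusted p = 0.0121), limma-voom (0.0464) and no filter (8.07e-08). Over all genes, DESeq2 called 850 higher and 399 lower, limma-voom 658 and 320, and no filter 1144 and 683. The main setting called 669 and 315. With a library left out, the log2 fold change of Il6 ranged from 1.95 without control 2 to 5.01 without control 1.

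Levels of different genes were compared per kilobase of exon, as CPM per kb. Ccl2 was highest in both groups, at 704 ± 223 CPM per kb in UBXN9-overexpressing and 393 ± 66.7 CPM per kb in control cells (SD, n = 2). Cxcl1, Ccl7, Cx3cl1 and Csf1 followed in this order in both groups, and none of these 5 overlapped its neighbour in the order. In UBXN9-overexpressing cells Cxcl2, Cxcl5 and Il34 came next at 9.47, 8.66 and 8.66 CPM per kb and overlapped each other. In control cells Il34, at 7.02 CPM per kb, stood above Cxcl2 and Cxcl5, which overlapped at 2.46 and 2.42 CPM per kb. Il6 and Ccl20 were lowest, at 1.28 and 1.05 CPM per kb in UBXN9-overexpressing cells, without overlap, and at 0.184 and 0.0747 CPM per kb in control cells, where they overlapped. Ccl2 made up 58.9% and 67.3% of the summed level of the 10 genes in the UBXN9 libraries, against 61.1% and 56.6% in the controls. The level of Cxcl1 was 15.6 and 23.3 times that of Cxcl2 in the UBXN9 libraries, against 50.6 and 38.4 times in the controls.

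The chromosome 5 cluster and the chromosome 11 cluster place several of these genes among related chemokines. Genes within 250 kb of one of the 10 were taken from the lists of this report after values had been seen. On chromosome 5, Cxcl5, Ppbp, Pf4, Cxcl3, Cxcl15, Cxcl1 and Cxcl2 lie in this order with starts spread over 144.5 kb, and 4 of 7 rose. Of these, Cxcl5, Cxcl1 and Cxcl2 are the genes already counted above, and among their neighbours only Pf4 rose. Over all genes tested, 5.06% rose. Pf4, a platelet chemokine, had 2.84 and 2.04 CPM in the UBXN9 libraries, against 0.649 and 0.318 CPM in the controls, a log2 fold change of 2.30 (adjusted p = 0.0356, and 0.136 without control 2 and 0.0677 with library size alone). Pf4 passed the filter on low counts only through the UBXN9 libraries, so its test depends on the group where it was high. Its neighbour Ppbp, also known from platelets, had a log2 fold change of 0.30 with a 95% interval of -1.16 to 1.77. Cxcl3 and Cxcl15 had values of 1.56 and 1.24 and did not pass (adjusted p = 0.127 and 0.135).

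On chromosome 11, Ccl2, Ccl7, Ccl11, Ccl12 and Ccl8 lie with starts spread over 79.6 kb, and 2 of the 4 tested rose, beside 5.06% of all genes tested. These were Ccl8, a monocyte chemokine with 4.48 and 6.71 CPM in the UBXN9 libraries, against 1.68 and 1.18 CPM in the controls, and Ccl11, which attracts eosinophils. Ccl11 had 0.946 and 1.28 CPM in the UBXN9 libraries, against 0.0763 and 0.227 CPM in the controls. It passed the filter on low counts only through the UBXN9 libraries, so its test depends on the group where it was high. The log2 fold changes of Ccl8 and Ccl11 were 1.96 and 2.89 (adjusted p = 0.0207 and 0.0445). The call of Ccl8 was lost without control 2 (adjusted p = 0.0543) and with library size alone (0.0607). That of Ccl11 was lost without control 1 (adjusted p = 0.246), with DESeq2 (0.105) and with library size alone (0.0723). Ccl12, which was not tested, had 4 and 4 counts in the UBXN9 libraries, against 0 and 0 in the controls. That is 2.76-fold higher against a floor of 3 counts over the control group, a value that leaves out counting error in the UBXN9 libraries.

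**Figure D3:**
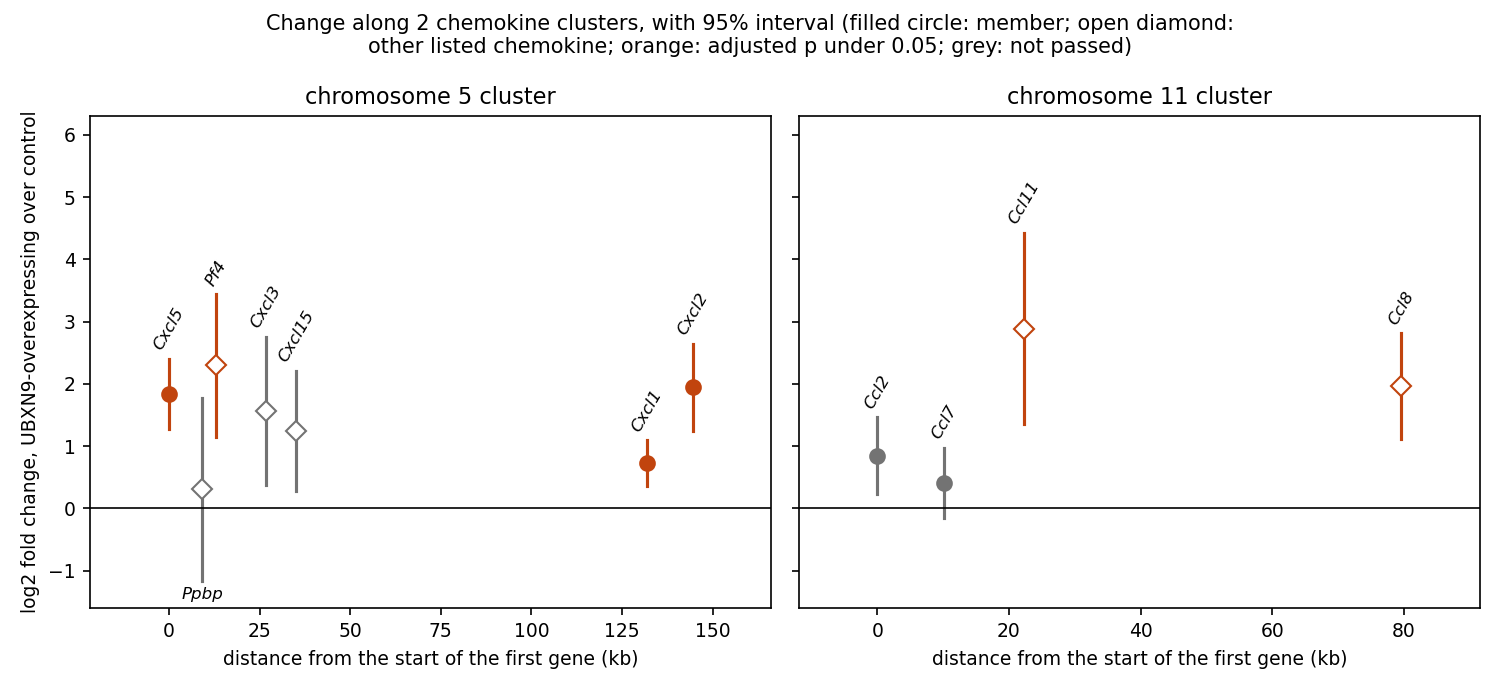
The log2 fold change with its 95% interval is plotted against the distance of each gene's start from the first gene of its cluster, in kb, with filled circles for the genes described here and open diamonds for other chemokines. On chromosome 11, Ccl2 and Ccl7 at the left have values of 0.84 and 0.40, while Ccl11 and Ccl8 to their right have values of 2.89 and 1.96.

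Further genes came from 7 lists of 97 genes in all, of which 74 were tested, 13 rose and 0 fell, beside 5.06% and 2.38% of all genes tested. The lists hold other myeloid chemokines, growth factors and cytokines, and also receptors, Il6 signal transduction, sheddases, mRNA stability and transcriptional regulators. Of the 13 that rose, 5 were chemokines and 2 were growth factors or cytokines. The median log2 fold change of the 74 was 0.37, beside -0.0056 over all genes tested. The count of 0 lower among the 74 was the same at an unadjusted p under 0.05 and with DESeq2 and limma-voom. Whether 0 lies below the 2.38% share was not tested. Without control 1, 2 of these genes were called higher, without control 2, 3 were, and with library size alone, 5 were. Among 18 other myeloid chemokines, 5 of 11 tested rose: Cxcl12, Cxcl16, Pf4, Ccl8 and Ccl11. Of these, Pf4 and Ccl11 passed the filter on low counts only through the UBXN9 libraries. Cxcl12, a ligand of Cxcr4 that retains and attracts leukocytes, had 54.1 and 56.7 CPM in the UBXN9 libraries, against 33.0 and 30.6 CPM in the controls (log2 fold change 0.80, adjusted p = 0.029). Cxcl16, a membrane-bound chemokine, had a log2 fold change of 1.00 (adjusted p = 0.0411). The adjusted p of Cxcl12 was 0.203 without control 1 and 0.299 without control 2, and that of Cxcl16 was 0.169 and 0.376. With library size alone they were 0.0716 and 0.0842, and 0 of the other myeloid chemokines were called.

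Of 19 other myeloid growth factors and cytokines, 2 of 13 tested rose, beside 5.06% of all genes tested. Whether these 2 calls exceed that share was not tested. Lif, a cytokine of the Il6 family, had 281 and 259 CPM in the UBXN9 libraries, against 140 and 159 CPM in the controls. Its log2 fold change was 0.85 (adjusted p = 0.023, and 0.302 without control 1 and 0.0922 without control 2). Tnf, an inducer of NF-kB, had 3.33 and 2.60 CPM in the UBXN9 libraries, against 0.801 and 0.817 CPM in the controls. Its log2 fold change was 1.87 (adjusted p = 0.0282, and 0.138 without control 1 and 0.0991 without control 2). Csf3, the growth factor of neutrophils, had 41.1 and 31.6 CPM in the UBXN9 libraries, against 23.8 and 30.7 CPM in the controls, and did not pass (log2 fold change 0.41, adjusted p = 0.332). Il18, which was not tested, had 11 and 11 counts in the UBXN9 libraries, against 0 and 0 in the controls. That is 7.59-fold higher against a floor of 3 counts over the control group, a value that leaves out counting error in the UBXN9 libraries.

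Receptors of the 10 ligands were low or did not pass in these cells. Of 14 listed, 4 were tested and 0 rose or fell, also with DESeq2, limma-voom and at an unadjusted p under 0.05. Over all genes tested 7.44% rose or fell, so 0 of 4 is near that share. Cxcr2 had 12 and 10 counts in the UBXN9 libraries, against 10 and 9 in the controls. Ccr2 had 0 and 2 counts, against 0 and 0, and Ccr6 had 0 counts in all 4 libraries. Cx3cr1 had 7 and 1 counts in the UBXN9 libraries, against 2 and 1 in the controls. Csf1r had 56 and 8 counts in the UBXN9 libraries, against 12 and 14 in the controls, so that UBXN9 1 stood apart. Its log2 fold change was 1.46 (adjusted p = 0.434), and it was -0.83 without UBXN9 1 and 2.35 without UBXN9 2 (adjusted p = 0.000281). The Il6 receptor chain Il6ra had 8.61 and 13.8 CPM in the UBXN9 libraries, against 17.4 and 14.2 CPM in the controls (log2 fold change -0.49, adjusted p = 0.377). Without UBXN9 2 its value was -0.87 (adjusted p = 0.0103). Its partner Il6st had 83.5 and 112 CPM, against 83.6 and 68.5 CPM in the controls (log2 fold change 0.36, adjusted p = 0.363), and 0.57 without UBXN9 1 (adjusted p = 0.0204).

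Of 9 genes of Il6 signal transduction 1 rose, Jak1, a kinase of many cytokine receptors, with 135 and 136 CPM in the UBXN9 libraries, against 83.5 and 73.4 CPM in the controls (log2 fold change 0.79, adjusted p = 0.0269, and 0.153 without control 1, 0.307 without control 2 and 0.0633 with library size alone). Socs3, the feedback inhibitor that Il6 induces through Stat3, had 257 and 219 CPM, against 203 and 228 CPM in the controls, and did not pass (adjusted p = 0.703). Of 5 genes that release membrane-bound ligands or restrain that release, 1 rose. This was Timp3, an inhibitor of the sheddase Adam17, with 141 and 139 CPM, against 77.4 and 71.0 CPM in the controls (log2 fold change 0.92, adjusted p = 0.0134, and 0.0932 without control 1 and 0.137 without control 2). Adam10 and Adam17, which shed Cx3cl1, had log2 fold changes of -0.31 and 0.27 (adjusted p = 0.41 and 0.431). Over all genes tested 5.06% rose, and whether 1 call in these lists of 9 and 5 genes exceeds that share was not tested.

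Of 11 genes that control the stability of cytokine mRNA, 1 rose. Zfp36, which binds AU-rich elements and speeds decay of cytokine mRNA, had 60.03 and 62.8 CPM in the UBXN9 libraries, against 35.8 and 34.5 CPM in the controls (log2 fold change 0.80, adjusted p = 0.0258, and 0.221 without control 1, 0.255 without control 2 and 0.0633 with library size alone). Of 23 transcriptional regulators, 3 rose. Cebpb, a bZIP factor first known as a regulator of Il6, had 308 and 248 CPM in the UBXN9 libraries, against 96.8 and 134 CPM in the controls. Its change was log2 1.26 (adjusted p = 0.0157, and 0.084 without control 1). Junb, a subunit of AP-1, had a log2 fold change of 0.87 (adjusted p = 0.0448, and 0.452 without control 1 and 0.0973 without control 2). Relb, an NF-kB subunit, had 0.67 (adjusted p = 0.0407, and 0.428 without control 1, 0.302 without control 2 and 0.0656 with library size alone). The NF-kB inhibitor gene Nfkbia, itself an NF-kB target, had 149 and 139 CPM, against 143 and 147 CPM in the controls. Its log2 95% interval was -0.36 to 0.34. Whether the calls in these lists of 11 and 23 genes exceed the 5.06% of all genes tested that rose was not tested.

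**Figure D4:**
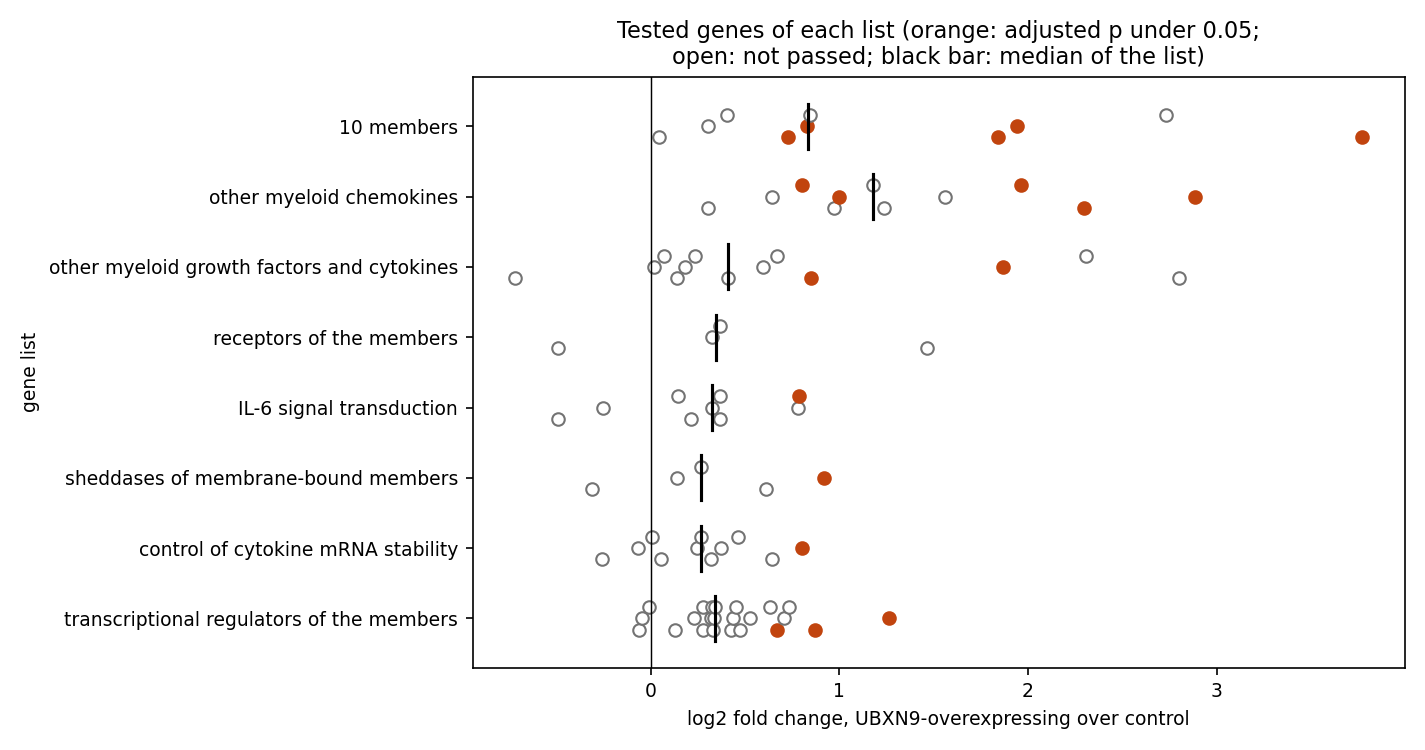
Each circle is the log2 fold change of a tested gene, UBXN9-overexpressing over control, with lists in rows, filled orange circles for an adjusted p under 0.05 and a black bar at the median of the list. Other myeloid chemokines have a median of 1.18 and regulators of 0.34, and no filled circle lies below 0.

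Genes most like Cxcl5 over the 4 libraries, by the root mean square difference of centred log2 CPM, were Foxl1 at 0.034, Fes at 0.039 and Mmp3 at 0.042. Those most like Ccl2 were Hsd3b2 at 0.010, Zdhhc21 at 0.014 and Gm12397 at 0.039. Hsd3b2 and Gm12397 were low, at 0.136 to 1.06 and 0.363 to 1.81 CPM, where the pseudocount of 0.5 shrinks log2 differences. Their log2 fold changes were 1.79 and 1.47, and that of Zdhhc21 was 0.92, against 0.84 for Ccl2. With 4 points per gene and 13230 genes to choose from, this is a description of the libraries.

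Markers of other cells were read beside these genes. Over all genes tested 5.06% rose and 2.38% fell, and whether the calls in the marker lists exceed these shares was not tested. Of 12 myeloid markers 3 were tested and 1, Lyz2, which encodes lysozyme, rose, with 63 and 82 counts in the UBXN9 libraries, against 29 and 14 in the controls (adjusted p = 0.0408, and 0.236 without control 2 and 0.0797 with library size alone). The list summed to 13.6 and 10.4 CPM in the UBXN9 libraries, against 7.10 and 7.03 CPM in the controls. Csf1r, also in this list, had 56 and 8 counts in the UBXN9 libraries, against 12 and 14 in the controls. Csf1r and the remaining tested marker did not pass. Untested markers had at most 16 counts in any library. The leukocyte marker Ptprc had 3 and 1 counts, against 0 and 0, the macrophage marker Adgre1 had 4 and 0, against 0 and 0, and S100a8 and Clec4f had 0 in all 4 libraries. The part of such transcripts in the values above was not tested. Of 8 stellate and fibroblast markers 7 were tested and 2 rose, and the list summed to 369 and 442 CPM in the UBXN9 libraries, against 239 and 218 CPM in the controls. Those that rose were Col1a1, a collagen chain, with 109 and 144 CPM, against 30.3 and 24.9 CPM (adjusted p = 0.00136), and Acta2, smooth muscle actin, with 46.6 and 38.9 CPM, against 17.7 and 17.8 CPM (adjusted p = 0.00784). The stellate cell marker Lrat had at most 1 count in any library, and the part of this list in the values above was not tested. Of 6 endothelial markers 2 were tested and 0 passed, with sums of 4.58 and 3.996 CPM in the UBXN9 libraries, against 3.05 and 2.04 CPM in the controls; an unadjusted p under 0.05 was found for 1, and DESeq2 and limma-voom called 0. The 6 T cell markers had 2 and 0 counts in all in the UBXN9 libraries, against 1 and 0 in the controls. Of 8 biliary and progenitor markers 4 were tested and 1 fell, the keratin gene Krt19, with 3.29 and 2.15 CPM, against 7.06 and 10.4 CPM in the controls (adjusted p = 0.0294, and 0.109 without control 2).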

How the data were processed

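Per the labels' protocols, TruSeq RNA libraries were made from total RNA and read on an Illumina HiSeq. The deposited values are estimated counts per gene, not scaled, with 11.0% of them fractional. The submitters' processing notes name HISAT2 2.1.0, HTSeq and GRCm38.p6; the annotation, the strand setting and the origin of the fractions are not given in the sources used here. Values were rounded to whole counts, and 241 rows outside the annotation were left out, holding between 0.302% and 0.535% of the counts. Of 55487 annotated rows, 55227 matched GENCODE M21 (GRCm38), the source of symbols, positions and exon lengths.

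The comparison used edgeR 4.0.16 (R 4.3.3) with TMM factors, filterByExpr, a two-sided quasi-likelihood test of group and Benjamini-Hochberg adjustment over the 13230 genes tested. Intervals of fold changes are 95% t intervals of that fit. Floors of 3 counts cover counting error of the control group only, not that of the UBXN9 counts. On 1 simulated data set the sizes of known changes were recovered, but the share of false calls was above the nominal level and many of the smaller changes were not called. The simulated counts were drawn independently for each gene, without the trend with transcript length seen here. Their error share need not be that of the calls above. Alternatives were RLE factors, library size alone, no filter, at least 5 CPM in 2 libraries, DESeq2 1.42.0, limma-voom 3.58.1, a replicate block, an adjusted p of 0.01, unannotated loci kept, and each library left out, with the lone library assumed to vary like the other group. A crossed block was added after the data were seen. The genes described, the lists and the tests were chosen with earlier results of these data known. Named genes were the 10, Aspscr1, up to 5 called members of each list, the receptors Cxcr2, Ccr2, Ccr6, Cx3cr1, Csf1r, Il6ra and Il6st, and the 3 genes most like Cxcl5 and Ccl2 (log2 CPM with a pseudocount of 0.5). Other genes with values were named after these were seen. Protein sequences were not used here. Figures were drawn with matplotlib 3.10.9.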

Additional observations from a re-analysis of the deposited data

How the results depend on the processing

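Members called higher numbered 5 in the main setting, 1 at an adjusted p of 0.01, and between 3 and 8 with a library left out; members called lower numbered 0 in every setting. Over all genes, 669 higher and 315 lower became 1144 and 683 with no filter and 310 and 88 at 0.01. With a library left out they ranged from 452 to 1591 higher and from 161 to 1309 lower, fewest without a control and most without a UBXN9 library. Of the other myeloid genes 13 were higher, against 5 with library size alone, 23 with no filter, 7 with a replicate block and 0 at 0.01, and from 2 to 26 with a library left out, where from 0 to 1 was lower.

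Cx3cl1 reversed to -0.044 with library size alone, where Csf1 (0.74, adjusted p = 0.0731) lost its call. Ccl2 passed with no filter (0.82) and DESeq2 (0.85). Il6 passed with no filter (2.72), DESeq2 (2.78), limma-voom (3.29) and a replicate block (3.04). At 0.01 the calls of Cxcl1 (0.73), Cxcl2 (1.94), Ccl20 (3.77) and Csf1 (0.83) were lost. With a library left out the log2 fold change ranged from 0.69 to 0.76 for Cxcl1, from 0.74 to 0.93 for Csf1, from 0.48 to 1.14 for Ccl2, from 0.10 to 0.67 for Ccl7 and from 1.95 to 5.01 for Il6. Ccl20 and Il6 were not tested at 5 CPM in 2 libraries. The cause of these differences was not tested.

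Same-numbered libraries deviated in opposite directions (correlation -0.482). The differences within the groups also ran with transcript length with opposite signs, so this value cannot show whether the numbers pair the libraries. Pairing is not given in the sources used here. With a replicate block Cxcl1 (0.73, adjusted p = 0.164) and Csf1 (0.83, adjusted p = 0.0581) lost their calls, as did Cxcl12 (adjusted p = 0.0842), Cxcl16 (0.0798), Lif (0.0579), Jak1 (0.0732), Zfp36 (0.0801), Relb (0.171) and Junb (0.112). A crossed block, which pairs libraries of different number, was added after the data were seen and has no basis in the labels. It called 8 members and 32 genes of the further lists higher. Over all genes it called 1776 higher and 1361 lower, against 669 and 315 in the main setting. Ccl7 (0.40), Ccl2 (0.82) and Il6 (2.87) then passed. Since the pairing was chosen with the spread of the libraries known, no conclusion is drawn from these calls. Genes of few counts, Ccl20 and Il6 among them, have the widest intervals.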
